A study of Mus musculus with 6 samples.

Results

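Pleiotrophin (Ptn), its only close relative midkine (Mdk), the receptors reported for these growth factors and partners of the receptor PTPRZ1 were examined in mouse neural stem progenitor cells. The 10 genes are Ptn, Mdk, Ptprz1, Ptprs, Alk, Ltk, Ncl, Lrp1, Fyn and Git1, taken by their symbols from a table of 22322 genes, in which each of the 10 symbols stood on 1 row. The cells were wild type (WT), are labelled neural stem progenitor cells both as cell line and as cell type, and received PTN or, as the Control, PBS for 24 h. RNA-seq was done on 3 libraries per group. Nothing in the labels says whether these came from separate cultures or animals, so p-values reflect only the spread among libraries, and the sources do not say what that spread holds. The labels give PTN as an abbreviation, read here as pleiotrophin, and the sources used here give no dose. Transcript counts show what the cells themselves transcribed and hold no measure of the added protein.

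Pleiotrophin and midkine are small secreted proteins rich in basic residues that bind heparan and chondroitin sulfate chains. PTPRZ1 is a receptor-type tyrosine phosphatase of glia and neural progenitors whose extracellular part carries chondroitin sulfate. Binding of pleiotrophin is known to bring PTPRZ1 molecules together and to lower its phosphatase activity, so that substrates such as the kinase FYN and the adaptor GIT1 stay phosphorylated. ALK, the related kinase LTK, the shuttling nucleolar protein nucleolin (Ncl), the endocytic receptor LRP1 and the proteoglycan-binding phosphatase PTPRS have been described as further receptors or binding partners.

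Libraries held between 19267764 and 26341745 counts. Transcripts of the Y chromosome (Uty, Ddx3y, Kdm5d and Eif2s3y) summed to 49.3, 102 and 80.3 CPM (counts scaled to the library's total) in Control 1, 2 and 3 and to 30.3, 74.2 and 7.96 CPM in PTN 1, 2 and 3, so the libraries differed in Y-linked RNA and PTN 3 was the lowest. The part of this in the values below was not tested. The 9 progenitor markers had Control means between 7.63 FPKM for Hes1 and 2112 FPKM for Fabp7 (FPKM are counts per kilobase of gene, scaled to the library's total), and 1 of the 9, Vim, was called higher in PTN cells, at 2358 against 1580 FPKM. They summed to 5902 to 6727 CPM in Control and 7724 to 9014 CPM in PTN libraries, with Vim the largest part. Of the 9, 6 had a positive log2 fold change and 3 a negative one. Msi1, for example, went from 138 to 93.1 CPM (edgeR adjusted p = 0.0867), so the sum does not stand for every progenitor marker. The 8 microglia markers summed to between 2.07 and 4.01 CPM in every library, and none of the 8 was at 0 throughout. The 9 astrocyte markers summed to between 10055 and 10200 CPM in Control and between 4763 and 8187 CPM in PTN libraries. With PTN, mean Gfap went from 3652 to 813 CPM and mean Aldoc from 1264 to 303 CPM. Of the 9, 5 had a negative log2 fold change, 3 of them called lower, and 4 a positive one. Slc1a3, for example, went from 1666 to 2149 CPM, so the sum does not stand for every astrocyte marker. For the 9 oligodendrocyte lineage markers the sums were 1321 to 1512 CPM without PTN and 1134 to 1498 CPM with it. Those sums were carried largely by Olig1 and Olig2. Of 8 oligodendrocyte lineage markers tested, 2 were called lower, and their median log2 fold change was -0.85. The 8 endothelial and mural markers summed to between 29.0 and 30.7 CPM in Control and between 10.3 and 15.9 CPM in PTN libraries. Acta2 and Pdgfrb, genes of mural cells, had means of 16.7 and 6.06 CPM in Control and 3.37 and 1.08 CPM in PTN cells. They were the 2 called lower of 5 tested. Rgs5, also a mural gene, had means of 5.08 and 4.61 CPM. Its groups overlapped and it was not called (edgeR adjusted p = 0.749). The endothelial genes Kdr (1.04 and 2.35 CPM) and Pecam1 (0.541 and 0.945 CPM) were the 2 with a positive log2 fold change, so the sum does not stand for them. The 8 neuron markers summed to between 268 and 403 CPM in Control and between 328 and 535 CPM in PTN libraries. Map2, with means of 287 and 397 CPM, held most of these sums. Of the 8, 5 had a positive log2 fold change, 1 of them called higher, and 3 a negative one. Tubb3, for example, went from 29.5 to 17.6 CPM, so the sum does not stand for every neuron marker. In bulk RNA, fewer cells of a type and less RNA per cell cannot be told apart. The part of these shifts in the values below was not tested. edgeR's quasi-likelihood test, with a threshold of 0.05 on the adjusted p, called 649 genes higher and 403 lower in PTN cells out of 13161.

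Among the 10 genes, pleiotrophin and its receptor PTPRZ1 had the highest levels per length. The mean FPKM in Control cells was 511 ± 111 for Ptn and 260 ± 52.4 for Ptprz1 (SD, n = 3 each). Fyn followed with 115 ± 4.06 FPKM and Ptprs with 115 ± 14 FPKM, and these neighbours overlapped. Ncl at 45.1 ± 10.8, Lrp1 at 44.2 ± 6.46, Git1 at 32.5 ± 4.34 and Mdk at 29.7 ± 1.31 FPKM formed a lower tier, in which Ncl overlapped Lrp1 and Git1 overlapped Mdk. Alk and Ltk, at 0.113 ± 0.00577 and 0.0967 ± 0.0321 FPKM, overlapped and stood far below the others, the Control mean of Mdk being 262 times that of Alk. In PTN cells the order of the means was the same, Alk then lay above Ltk in 3 of 3 libraries, Git1 lay above Mdk, and Lrp1 overlapped Git1.

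The order rests in part on the gene lengths behind FPKM. The counts and FPKM of Ncl imply a length of 7.94 kb, close to its longest coding transcript in GENCODE M21 (8.20 kb), while those of Ptn imply 1.61 kb against a longest coding transcript of 2.56 kb. When CPM was divided by the longest coding transcript instead, Fyn and Ptprs changed places, as did Ncl and Lrp1 in Control cells, and the other 6 genes kept theirs. No exon of the 10 genes overlapped an exon of another gene on the opposite strand in that annotation. The exons of Ncl hold 3 small RNA genes on the same strand. Because its 2 lengths, 7.94 and 8.20 kb, are nearly alike, the division could not show where Ncl would stand with a shorter transcript.

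**Figure D1:**
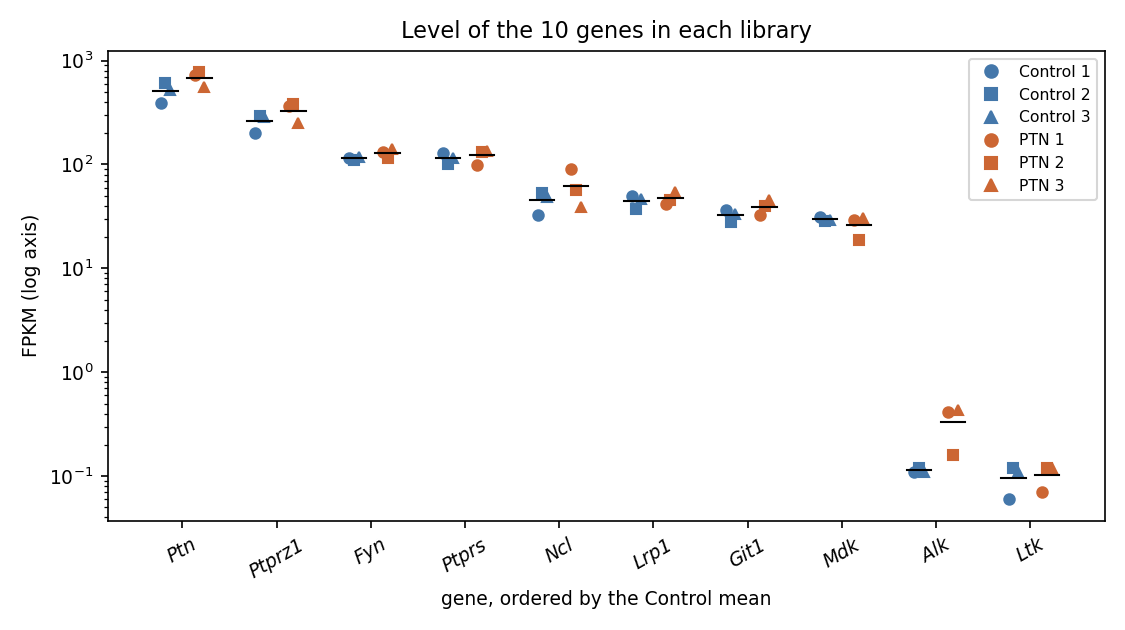
FPKM of the 10 genes in each library, on a log axis, with genes ordered by the Control mean; each symbol is 1 library and the black bars are group means (n = 3 each). Ptn and Ptprz1 lie at the top between 199 and 775 FPKM, and Alk and Ltk lie at or under 0.43 FPKM in every library.

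None of the 9 genes with enough counts to test was called between PTN and Control cells by edgeR, where 7.99% of all tested genes were called. The same edgeR test gave an unadjusted p under 0.05 for 1 of the 9, Alk, against 27% of all tested genes. DESeq2's Wald test called 1 of the 9, again Alk, and 14.5% of all tested genes, and limma-voom called 0 of the 9 and 7.97% of all. The groups did not overlap in 1 of the 9, Alk, and in 32.9% of all tested genes. The median log2 fold change of the 9 was 0.28, with 8 values above 0 and 1 below. Over all tested genes the median was 0.03 and 52.5% of values were above 0. Lrp1 (0.01) and Ptprs (0.07) were near 0, and both, like Mdk, changed sign under some other settings. Ltk was too low to test.

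**Figure D2:**
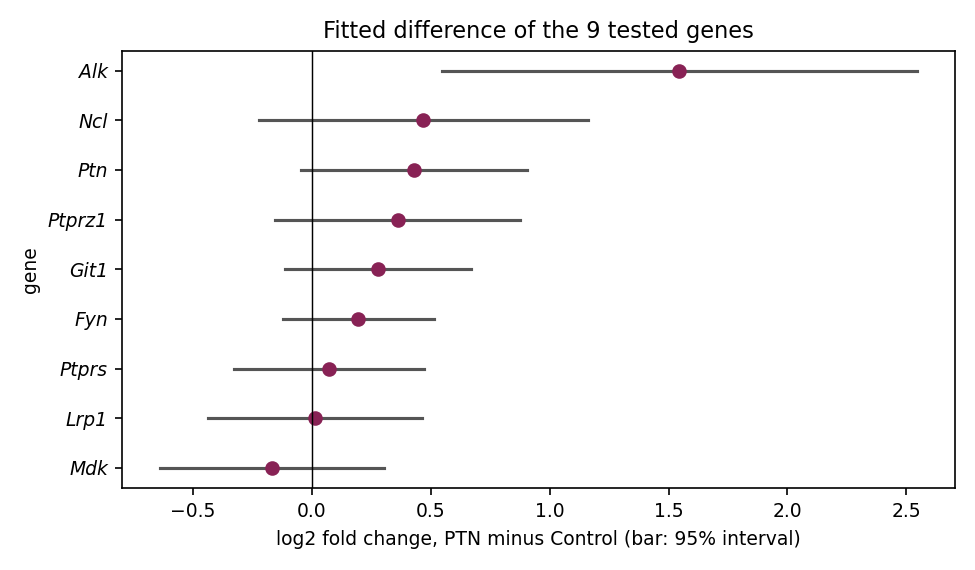
Log2 fold change of the 9 tested genes, PTN minus Control, from edgeR, with 95% intervals as bars. The interval of Alk, from 0.55 to 2.54, is the only one that does not include 0, and its p adjusted over all genes was 0.0674.

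Of the ligands, Ptn stood at 394, 614 and 525 FPKM in Control 1, 2 and 3 and at 731, 775 and 555 FPKM in PTN 1, 2 and 3. PTN 1 and PTN 2 were higher than all Control libraries, while PTN 3 lay between Control 3 and Control 2. Its fitted change was 1.35-fold, with a 95% interval from 0.968-fold to 1.87-fold (edgeR adjusted p = 0.223). A rise of the cells' own Ptn transcript of more than 1.87-fold thus lay outside the interval.

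Midkine, the other ligand, showed little spread in Control cells, at 31.1, 28.55 and 29.4 FPKM. PTN 1 and PTN 3 held 29.4 and 30.75 FPKM, and PTN 2 held 18.8 FPKM. Only PTN 2 thus stood outside a narrow range, and the fitted log2 change was -0.17 ± 0.21 (SE; edgeR adjusted p = 0.613), or 0.03 without PTN 2. Midkine made up between 4.44% and 7.31% of the summed FPKM of the 2 ligands in Control and between 2.37% and 5.25% in PTN libraries.

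Within a library the ratio of Ptn to Mdk FPKM was 12.7, 21.5 and 17.9 in Control and 24.9, 41.2 and 18.04 in PTN cells. These ranges overlapped by the PTN 3 value (exact permutation p = 0.2, adjusted 0.6 over 6 ratios, where 3 against 3 libraries allow no two-sided p under 0.1). The ratio of Ptn to Ptprz1, ligand to receptor, was far steadier, at 1.98, 2.11 and 1.82 in Control and 2.02, 2.05 and 2.22 in PTN cells (exact permutation p = 0.4, adjusted 0.6).

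Ptprz1, the signalling receptor, had 199, 291 and 289 FPKM in Control 1, 2 and 3 and 363, 378 and 249.9 FPKM in PTN 1, 2 and 3. As with Ptn, PTN 1 and PTN 2 were higher than all Control libraries, and PTN 3 lay between Control 1 and the others. The fitted change was 1.29-fold, with a 95% interval from 0.899-fold to 1.84-fold (edgeR adjusted p = 0.321). With a trend on gene length removed from each library, the log2 fold change of Ptprz1 was 0.10 in place of 0.36.

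Ptprs, a phosphatase of the LAR type that binds heparan and chondroitin sulfate proteoglycans, was at 129, 101 and 115 FPKM in Control and 98.2, 133 and 135 FPKM in PTN cells. Here PTN 1 was the lowest library and the groups overlapped throughout, with a 95% interval of the fold from 0.797 to 1.39 (edgeR adjusted p = 0.799). The ratio of Ptprz1 to Ptprs FPKM ran from 1.54 to 2.87 in Control and from 1.85 to 3.69 in PTN cells (exact permutation p = 0.6, adjusted 0.6).

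Alk, which encodes the receptor tyrosine kinase anaplastic lymphoma kinase, had 14, 17 and 13 counts in Control 1, 2 and 3 and 58, 19 and 45 counts in PTN 1, 2 and 3. In FPKM these were 0.11, 0.12 and 0.11 against 0.41, 0.16 and 0.43. PTN 1 and PTN 3 were well above Control, PTN 2 only just so, and the groups did not overlap. The fitted change was 2.92-fold (log2 fold change 1.55 ± 0.44 SE, edgeR adjusted p = 0.0674). Counting error alone puts the ratio of the summed counts between 2.05 and 4.22, while the interval of the fit, which includes the spread between libraries, ran from 1.46 to 5.83. Alk was called by edgeR without PTN 2 (adjusted p = 0.0136, where 8.36% of all tested genes were called) and by DESeq2's Wald test (adjusted p = 0.031), and not when any other library was dropped (edgeR adjusted p from 0.0842 to 0.211).

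PTN 2 was also the lowest PTN library for Lyn, a SRC family kinase, at 23.0 FPKM against 57.9 and 56.0 FPKM in PTN 1 and PTN 3 and 20.4 to 20.6 FPKM in Control. It was the highest PTN library for the astrocyte filament gene Gfap, at 639.9 FPKM against 128 and 156 FPKM, with 1357 to 1422 FPKM in Control. Both genes were singled out after their values were seen, and the part of such differences between libraries in the Alk value was not tested.

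Ltk, the kinase most like Alk, had 3, 7 and 5 counts in Control and 4, 6 and 5 in PTN cells. The sums were 15 counts in each group, a ratio, scaled to library totals, of 1.05 with a counting interval of 0.480 to 2.31, which leaves out the spread between libraries. The secreted ligands of both kinases were at the floor: Alkal1 had no count in any library, and Alkal2 had 3.03 estimated counts in PTN 1 and none elsewhere.

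Ncl encodes nucleolin, which serves ribosome assembly in the nucleolus and is reported to bind pleiotrophin at the cell surface. Its FPKM were 32.95, 53.5 and 48.8 in Control 1, 2 and 3 and 89.8, 57.3 and 39.3 in PTN 1, 2 and 3. PTN 1 stood alone at the top, while PTN 3 was below Control 2 and Control 3. The fitted change of 1.38-fold had a 95% interval from 0.856-fold to 2.24-fold (edgeR adjusted p = 0.337), and the log2 fold change was 0.11 without PTN 1 in place of 0.47.

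Lrp1, a large endocytic receptor that takes up midkine among many ligands, had the smallest fitted change of the 9. It had 49.2, 36.9 and 46.5 FPKM in Control and 42.0, 45.2 and 54.3 FPKM in PTN cells, overlapping ranges with a 95% interval of the fold from 0.738 to 1.38 (edgeR adjusted p = 0.972). The ratio of Mdk to Lrp1 FPKM was 0.632, 0.773 and 0.632 in Control and 0.700, 0.416 and 0.566 in PTN cells (exact permutation p = 0.3, adjusted 0.6).

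Of the intracellular partners, the kinase gene Fyn varied least, at 116, 111 and 119 FPKM in Control and 132, 117 and 139.9 FPKM in PTN cells. PTN 2 lay inside the Control range and the other PTN libraries above it. The 95% interval of its fold, from 0.919 to 1.43, was the narrowest of the 9 (edgeR adjusted p = 0.377). Git1, an ARF GTPase-activating adaptor of focal adhesions that PTPRZ1 dephosphorylates, stood at 36.6, 28.0 and 33.05 FPKM in Control and 32.5, 39.5 and 45.9 FPKM in PTN cells. PTN 2 and PTN 3 lay above all Control libraries and PTN 1 within them, for a change of 1.21-fold with an interval from 0.924-fold to 1.59-fold (edgeR adjusted p = 0.316).

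Ptn, Ptprz1 and Ncl were all lowest in Control 1, and PTN 3 was the lowest PTN library for each of them. Git1, Ptprs and Lrp1 were higher in Control 1 than in the other Control libraries and highest of all in PTN 3. Over the 6 libraries the log2 CPM of Ptn and Ptprz1 had Pearson's r = 0.96 (exact permutation p = 0.00694, adjusted 0.175 over 36 pairs) and Spearman's rho = 0.94 (exact permutation p = 0.0167, adjusted 0.2). The r was 0.84 without Control 1 and PTN 2, the libraries farthest from the median of Ptn, and 0.96 once group means were removed.

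Ptprs and Lrp1 had r = 0.94 (exact permutation p = 0.00972, adjusted 0.175) and rho = 0.83 (exact permutation p = 0.0583, adjusted 0.3), falling to r = 0.58 without Control 2 and PTN 1. Ncl and Lrp1 ran opposite, with r = -0.84 (exact permutation p = 0.0347, adjusted 0.179) and rho = -0.89 (exact permutation p = 0.0333, adjusted 0.24), and r = -0.81 without Control 1 and PTN 1. In all, 6 of the 36 pairs had r above 0.8 and 1 had r below -0.8, and 0 passed adjustment, so with 6 libraries these remain descriptions.

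**Figure D3:**
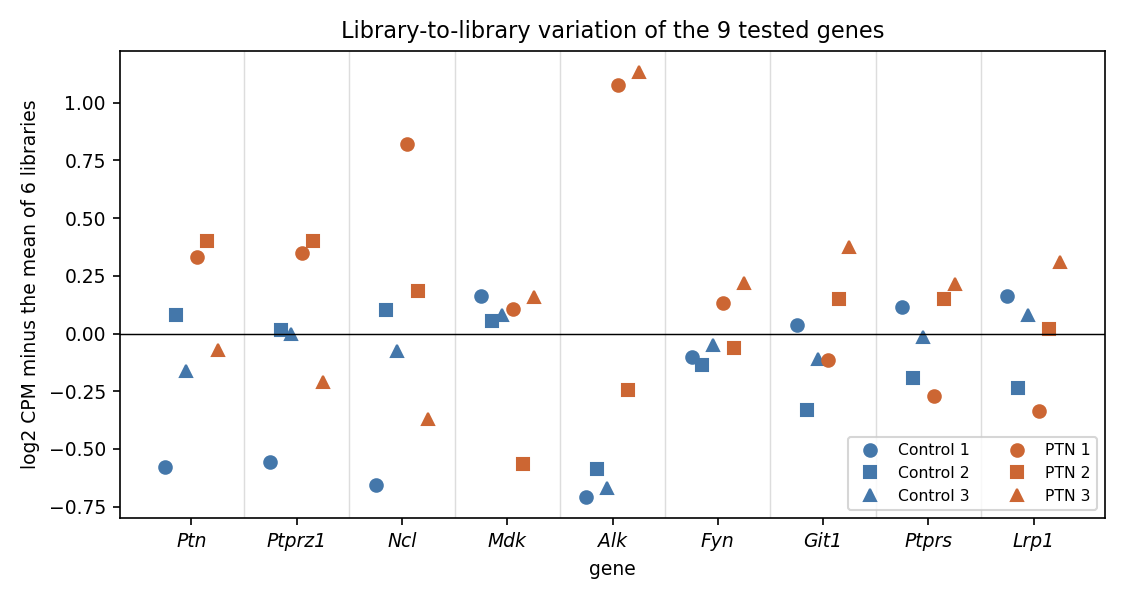
Log2 CPM of the 9 tested genes in each library minus that gene's mean over the 6 libraries. Control 1 (blue circle) is lowest for Ptn, Ptprz1 and Ncl, and PTN 3 (orange triangle) is highest for Git1, Ptprs and Lrp1.

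The share of counts from mitochondrial DNA moved with this pattern. It was 4.47, 7.47 and 5.76% in Control 1, 2 and 3 and 8.12, 8.10 and 3.97% in PTN 1, 2 and 3, so Control 1 and PTN 3 were the lowest libraries. Against it, log2 CPM had r = 0.83 for Ptn (exact permutation p = 0.0403, adjusted 0.0906 over 9 genes), 0.88 for Ptprz1 (exact permutation p = 0.0194, adjusted 0.0875), 0.86 for Ncl (exact permutation p = 0.0153, adjusted 0.0875) and -0.85 for Lrp1 (exact permutation p = 0.0403, adjusted 0.0906). The rho values were 0.77, 0.89, 0.94 and -0.94 in that order (exact permutation p = 0.103, 0.0333, 0.0167 and 0.0167, adjusted 0.231, 0.1, 0.075 and 0.075).

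None of the 9 relations passed adjustment. Without Control 1 and PTN 3 the r values were 0.95, 0.79, 0.68 and -0.59, and with group means removed 0.92, 0.92, 0.87 and -0.87. Mitochondrial transcripts are counted in the same total as the genes. The part of this share in the levels of the genes was not tested. With Control 1 and PTN 3 both left out, a choice made after seeing the data, 0 of the 9 genes were called by edgeR, and the log2 fold changes of Ptn and Ptprz1 were 0.38 and 0.35.

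**Figure D4:**
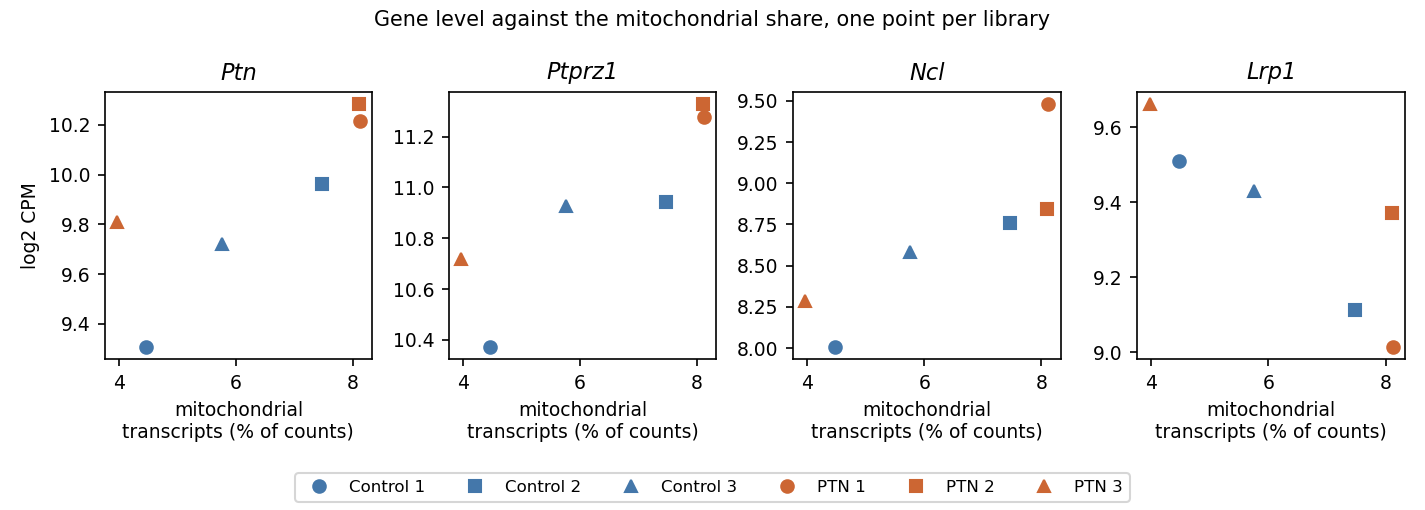
Log2 CPM of Ptn, Ptprz1, Ncl and Lrp1 against the percent of counts from mitochondrial DNA, 1 point per library. Ptn, Ptprz1 and Ncl are lowest at 4.47 (Control 1), and Lrp1 is highest at 3.97 (PTN 3).

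Many other genes followed the same course. Of 12177 genes with a mean of at least 1 CPM, 626 had r above 0.95 with Ptn over the 6 libraries, 669 with Ptprz1 and 140 with Alk. Closest to Ptn were Arsk, Serinc1 and Ccnt2 (each with r = 1.00 after rounding). Closest to Ptprz1 were Aff4, Sirt1 and Zfp729a (also 1.00). Closest to Alk were Cpox (1.00), Parp11 (0.99) and Tnfrsf22 (0.99). Such a ranking over 6 libraries is a description of these libraries.

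The upstream sequences of the genes that varied together are shown because they let the co-varying groups be compared at their start sites: Ptn, Ptprz1 and Ncl, then Ptprs and Lrp1. They are RefSeq sequences of build GRCm38.p6, up to 250 bases before the annotated start, without bases that GENCODE M21 places in an exon of the gene. The windows are chr6:36810221-36810429 on the minus strand for Ptn, chr6:22875252-22875501 on the plus strand for Ptprz1, chr1:86359456-86359705 on the minus strand for Ncl, chr17:56476484-56476730 on the minus strand for Ptprs and chr10:127621149-127621398 on the minus strand for Lrp1. Capitals mark matches, on either strand, to 6 motifs: the GC box GGGCGG, the CCAAT box CCAAT, the TATA box TATAAA, the E-box CACGTG, the cAMP response element TGACGTCA and the AP-1 site TGANTCA.
Ptn: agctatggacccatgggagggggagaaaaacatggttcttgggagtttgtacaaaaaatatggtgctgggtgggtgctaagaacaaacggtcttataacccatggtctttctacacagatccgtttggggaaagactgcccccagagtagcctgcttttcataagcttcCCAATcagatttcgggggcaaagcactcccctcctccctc
Ptprz1: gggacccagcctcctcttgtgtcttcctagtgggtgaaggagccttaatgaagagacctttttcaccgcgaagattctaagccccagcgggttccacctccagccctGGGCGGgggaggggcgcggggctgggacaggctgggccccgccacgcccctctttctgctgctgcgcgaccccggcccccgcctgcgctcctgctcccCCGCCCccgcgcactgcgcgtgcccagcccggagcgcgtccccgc
Ncl: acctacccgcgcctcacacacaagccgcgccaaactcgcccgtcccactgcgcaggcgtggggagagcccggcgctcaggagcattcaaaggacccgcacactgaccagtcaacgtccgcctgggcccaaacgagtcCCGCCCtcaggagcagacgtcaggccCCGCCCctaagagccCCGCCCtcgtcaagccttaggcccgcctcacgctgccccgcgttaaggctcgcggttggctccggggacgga
Ptprs: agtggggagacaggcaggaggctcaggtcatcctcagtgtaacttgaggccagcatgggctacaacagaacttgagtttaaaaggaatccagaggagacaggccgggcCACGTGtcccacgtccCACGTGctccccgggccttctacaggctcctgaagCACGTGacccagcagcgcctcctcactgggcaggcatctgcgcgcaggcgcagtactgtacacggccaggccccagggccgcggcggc
Lrp1: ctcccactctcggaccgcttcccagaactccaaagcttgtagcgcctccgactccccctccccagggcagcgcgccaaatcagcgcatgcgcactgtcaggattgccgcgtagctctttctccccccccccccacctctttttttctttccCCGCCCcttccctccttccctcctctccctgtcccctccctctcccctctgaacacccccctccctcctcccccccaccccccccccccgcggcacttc
The Ptn window held 1 CCAAT box and no GC box, the Ptprz1 and Ncl windows 2 and 3 GC boxes, the Lrp1 window 1 GC box, and the Ptprs window 3 E-boxes. RefSeq lists another Ptprs start, whose 250-base window held 3 GC boxes and no E-box, and the windows of the 2 Git1 starts held 2 and 9 GC boxes. None of the 6 motifs was thus common to these windows of Ptn, Ptprz1 and Ncl. Of 32817 promoter windows of 250 bases, 32.7% held a GC box, 33.8% a CCAAT box, 12.4% a TATA box, 6.02% an E-box, 1.55% the cAMP response element and 6.75% the AP-1 site. G and C made up 52% of the full 250-base window of Ptn, 71.6% of Ptprz1, 69.6% of Ncl, 64% of Ptprs and 67.2% of Lrp1, where the median over all windows was 52.4%. A match is a run of letters and shows no binding, and 9 of the 10 genes had an entry in the promoter table.

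Around the 10 genes, 9 lists of related genes were read from the same fit. Of their 106 distinct tested genes, 12 rose and 2 fell, or 11.3% and 1.89%, beside 4.93% and 3.06% of all tested genes. Their median log2 fold change was 0.15, and 63.2% of values were above 0, beside 52.5% of all tested genes. The number called higher was 4, 3, 2, 5, 15 and 21 without Control 1, 2 and 3 and PTN 1, 2 and 3 in turn. Over all genes it was 216, 232, 201, 354, 666 and 1273 in the same order, of 13292 to 13347 tested. With the length trend removed, 7 list genes and 503 of all 13161 tested genes were called higher. Without both Control 1 and PTN 3 these numbers were 15 and 866, of 13307 tested. The lists were chosen with earlier results of these data known.

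Of 15 tested genes for other reported receptors and coreceptors of pleiotrophin and midkine, 3 rose and 0 fell (20% called, median log2 fold change 0.38). The semaphorin and VEGF coreceptor gene Nrp1 had 4.38, 4.87 and 5.10 FPKM in Control and 10.8, 7.78 and 9.81 FPKM in PTN cells, a rise of 1.99-fold (edgeR adjusted p = 0.0127, and 0.0527 to 0.0644 when Control 1, 2 or 3 was dropped). Itgav, the integrin alpha V chain, was at 46.2, 56.6 and 64.6 FPKM and at 120, 71.7 and 119.6 FPKM, 1.88-fold higher (edgeR adjusted p = 0.0342, 0.0981 to 0.131 when Control 1, 2 or 3 or PTN 1 was dropped, and 0.0793 with the length trend removed; called in 9 of 17 alternatives). Itga6, the laminin-binding alpha 6 chain, rose 1.49-fold, from 18.6, 23.0 and 23.1 to 32.8, 34.1 and 29.9 FPKM (edgeR adjusted p = 0.0482, 0.0909 to 0.179 when any library but PTN 3 was dropped, 0.0696 with the length trend removed and 0.0571 with no filter on low counts; called in 9 of 17 alternatives). In all 3 genes the PTN libraries lay wholly above Control, while the groups did not overlap in 32.9% of all tested genes. The 3 were named for their calls in the same libraries, so this adds no separate evidence.

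Among 16 tested ligands, partners and substrates of PTPRZ1, 2 rose and 0 fell (12.5% called, median log2 fold change 0.21). Tnc encodes the matrix protein tenascin-C, a PTPRZ1 ligand, and was at 64.0, 49.3 and 62.5 FPKM in Control and 149.96, 81.5 and 187 FPKM in PTN cells. It rose 2.39-fold (edgeR adjusted p = 0.0324, and 0.0924 to 0.109 when Control 1, 2 or 3 or PTN 1 was dropped, and 0.116 with the length trend removed). The neural adhesion molecule gene Nrcam rose 1.96-fold, from 30.5, 42.7 and 41.0 to 72.8, 91.99 and 56.2 FPKM (edgeR adjusted p = 0.033, and 0.0701 to 0.129 when any library but PTN 3 was dropped). PTN 2 was the lowest PTN library for Tnc and the highest for Nrcam. Neither gene overlapped Control, which adds no separate evidence to their calls in the same libraries.

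The proteoglycan ligands of PTPRS went both ways, with 1 of 12 tested genes higher and 1 lower (16.7% called, median log2 fold change 0.26). The heparan sulfate proteoglycan gene Gpc5 rose 4.31-fold, from 0.76, 1.10 and 1.30 to 2.55, 6.23 and 3.98 FPKM (edgeR adjusted p = 0.0085), and stayed called when each library was dropped. Cspg4, a chondroitin sulfate proteoglycan and a marker of oligodendrocyte precursors, fell 1.81-fold, from 8.85, 6.68 and 7.83 to 3.74, 4.81 and 4.33 FPKM (edgeR adjusted p = 0.0169, and 0.0611 to 0.0771 when Control 1, Control 3 or PTN 1 was dropped). Other oligodendrocyte lineage markers, singled out after their values were seen, were lower beside it. Pdgfra, the PDGF receptor gene of oligodendrocyte precursors, fell 3.90-fold, from 12.7, 16.7 and 16.6 to 4.28, 5.88 and 2.16 FPKM (edgeR adjusted p = 0.0145, and 0.0533 without PTN 1). Sox10, a transcription factor of the lineage, had 15, 12.1 and 12.7 FPKM in Control and 4.34, 7.44 and 1.55 FPKM in PTN cells (edgeR adjusted p = 0.0652, and 0.0225 and 0.0174 without PTN 2 and PTN 3). The part of such markers in the Cspg4 value was not tested.

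Of 14 other receptor-type tyrosine phosphatases tested, 2 rose and 0 fell (14.3% called, median log2 fold change 0.10). Both encode phosphatases whose extracellular parts bind like to like between cells. Of their subfamily, Ptprk and Ptpru were not called, with log2 fold changes of -0.19 and 0.63 (edgeR adjusted p = 0.471 and 0.169). Ptprt rose 2.54-fold, from 1.28, 1.78 and 1.61 to 3.69, 4.79 and 3.34 FPKM (edgeR adjusted p = 0.0064), called without each library in turn. Ptprm rose 1.66-fold, from 9.76, 8.65 and 10.1 to 16.1, 13.02 and 18.3 FPKM (edgeR adjusted p = 0.0307, and 0.0848 to 0.131 when Control 1, 2 or 3 or PTN 1 was dropped, and 0.118 with the length trend removed).

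Of 9 tested ligands and adaptors of ALK and LTK, 2 rose and 0 fell (22.2% called, median log2 fold change 0.19). Both are adaptor genes. Irs1, which couples insulin and other receptors to PI3K, rose 1.74-fold, from 4.03, 4.2 and 4.3 to 7.24, 7.36 and 7.17 FPKM (edgeR adjusted p = 0.00833, and 0.0527 and 0.0734 without Control 2 and Control 3). Its counts were partly fractional, and with the length trend removed its adjusted p was 0.0958. Shc3, a neuronal SHC adaptor, rose 1.52-fold, from 17.9, 20.35 and 21.2 to 28.8, 27.8 and 30 FPKM (edgeR adjusted p = 0.0415, 0.105 to 0.151 when Control 1, 2 or 3 or PTN 1 was dropped, and 0.0501 with no filter on low counts; called in 10 of 17 alternatives).

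While Lrp1 itself was level, 2 of 11 tested members of its receptor family rose and 1 fell (27.3% called, median log2 fold change -0.16). Vldlr, a reelin receptor, rose 2.27-fold, from 6.12, 8.54 and 7.47 to 16.3, 13.8 and 11.3 FPKM (edgeR adjusted p = 0.00992, and 0.0506 without Control 3). Lrp1b, the close relative of Lrp1, rose 2.52-fold from low levels of 0.35, 0.46 and 0.64 to 1.66, 1.51 and 1.00 FPKM (edgeR adjusted p = 0.0314, and 0.0554 to 0.129 when any library but PTN 3 was dropped). Sorl1, a sorting receptor of the same family, fell 2.01-fold, from 22.0, 19.5 and 20.7 to 8.30, 11.6 and 10.9 FPKM (edgeR adjusted p = 0.00862), and was called without each library in turn.

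In the remaining lists edgeR called 0 genes under the settings used throughout, and single genes under other settings. Over all tested genes, 27% had an unadjusted p under 0.05 by edgeR and 14.5% were called by DESeq2's Wald test. The unadjusted shares were 21.4% of the nucleolar list, 42.9% of the SRC family list and 18.2% of the GIT, PIX, PAK and paxillin list. Among 14 nucleolar genes beside nucleolin, 3 had an unadjusted p under 0.05 by edgeR, 0 were called by DESeq2's Wald test, and the one of smallest p was Gnl3, at 1.45-fold (edgeR adjusted p = 0.137). Without PTN 3 edgeR called 2 of these 14 higher, and 9.56% of all tested genes. Among 7 tested SRC family kinases and regulators beside Fyn, 3 had an unadjusted p under 0.05 by edgeR and 1 was called higher by DESeq2's Wald test. Lyn had the smallest p, at 2.23-fold (edgeR adjusted p = 0.0557, 0.00323 without PTN 2 and 0.0368 with no filter on low counts, where 6.55% of all tested genes were called). Among 11 genes of the GIT, PIX, PAK and paxillin complex, 2 had an unadjusted p under 0.05 by edgeR and 2 were called higher by DESeq2's Wald test. There the kinase gene Pak3 came closest, at 2.94-fold (edgeR adjusted p = 0.05004, 0.00447 without PTN 3, 0.0297 with no filter on low counts and 0.0489 with library totals as the scale; called in 8 of 17 alternatives), with 0.88, 2.39 and 1.66 FPKM in Control and 9.08, 7.15 and 4.29 FPKM in PTN cells.

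**Figure D5:**
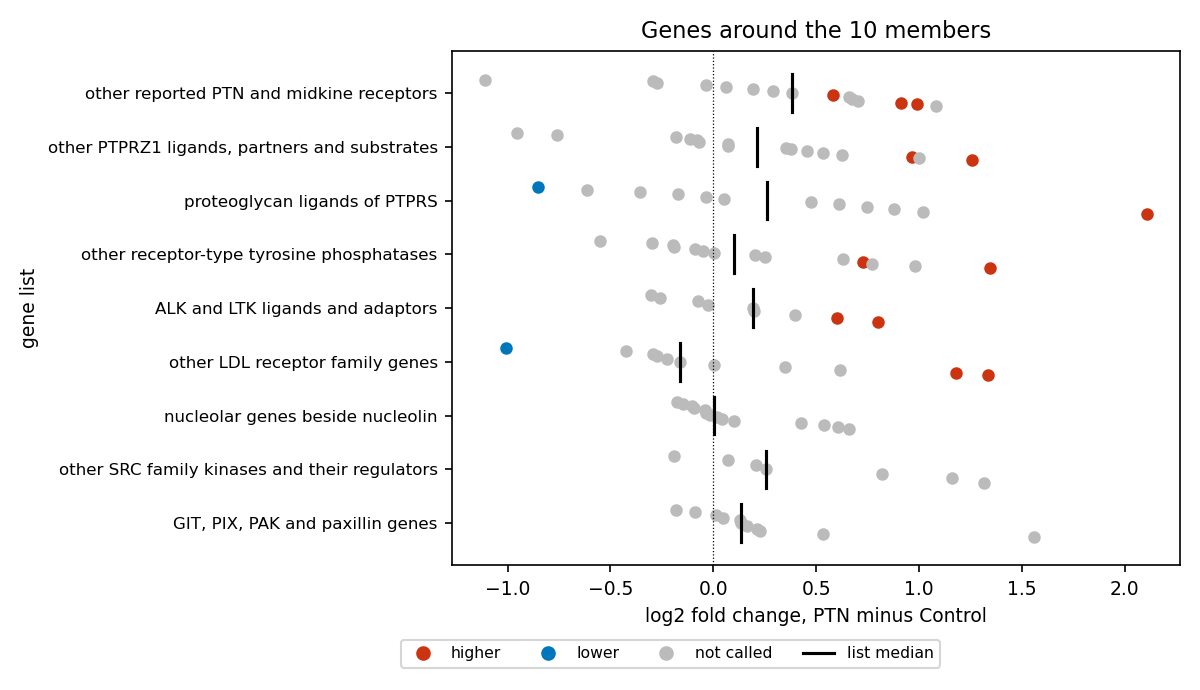
Log2 fold change, PTN minus Control, of each tested gene in the 9 lists, 1 point per gene; red and blue points were called higher and lower by edgeR (adjusted p under 0.05) and black bars are list medians. The 12 genes called higher and the 2 called lower are spread over the first 6 lists, and the medians lie between -0.16 and 0.38.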

How the data were processed

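The deposited table covers 3 PTN and 3 Control libraries and gives each gene's expected counts, which are estimates not scaled between libraries. It also gives FPKM, which the authors scaled to gene length and library total. Per the labels' protocols, libraries were made with a SMARTER mRNA kit. The sources used here name no aligner, counter, build or annotation. Columns were matched to samples by group initial and replicate number.

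Expected counts were rounded. Genes were kept by filterByExpr (13161 of 22322, or 59%), scaled by TMM and compared, PTN minus Control, with edgeR's quasi-likelihood test (edgeR 4.0.16, R 4.3.3), with Benjamini-Hochberg adjustment over all tested genes and calls under 0.05. The SE was the log2 fold change divided by the root of F, and intervals are at 95%. The fit was tested on simulated data. Totals of 19267764 to 26341745 counts set the depth, and intervals on counts cover counting error only. Correlations used log2 CPM with a prior count of 2. The members and lists were chosen with earlier results of these data known. Named genes were the 10 members, in each list the 3 called genes with the smallest p (with none called, the 1 smallest), the 3 genes most like Ptn, Ptprz1 and Alk, and markers by level. Predicted gene models were left out. Alternatives were other scalings, filters and tests (DESeq2 1.42.0, limma 3.58.1, on FPKM with pseudocounts of 0.1 and 1), the replicate block, removal of a length trend, and leaving out libraries. Promoter sequences are RefSeq's, and Ptprg was not analysed here.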

Additional observations from a re-analysis of the deposited data

How the results depend on the processing

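Under the 17 alternatives the 9 tested members gave 0 calls, except for Alk by DESeq2's Wald test and without PTN 2 (1 call each, so 0 to 1 over the single libraries left out). Alk was not tested under the filter of 1 CPM in 3 libraries. Ptn, Ptprz1, Ncl, Fyn, Git1 and, where tested, Alk had a positive log2 fold change in every alternative, from 0.24 to 0.56 for Ptn and from 0.10 to 0.53 for Ptprz1. Values near 0 changed sign. Lrp1 was 0.01, but -0.00034 by limma-voom, -0.00060 with the replicate block, -0.39 with the length trend removed, -0.14 without Control 2, -0.16 without PTN 3 and -0.093 without both Control 1 and PTN 3, and at most 0.16 (without PTN 1) with 1 library left out. Ptprs was 0.07, but -0.17 with the length trend removed, -0.043 without Control 2 and -0.019 without PTN 3, and at most 0.21 (without PTN 1). Mdk was -0.17, but 0.087 with the length trend removed and 0.032 without PTN 2, and at lowest -0.29 (without PTN 3). The difference in the log2 ratio of Ptprz1 to Ptprs was 0.27, but -0.0014 without Control 1 (and up to 0.54 with another library left out). The cause was not tested.

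Genes called numbered 649 higher and 403 lower, 1134 and 774 by DESeq2's Wald test, 201 to 1273 and 130 to 904 with 1 library left out, and 866 and 610 without Control 1 and PTN 3. Of the list genes 12 were called higher and 2 lower, 23 higher by DESeq2's Wald test, 7 higher with the length trend removed, and 2 to 21 higher and 1 to 3 lower with 1 library left out. Among the other list genes named, Gpc5, Ptprt and Sorl1 were called in 17 of the 17 alternatives, Vldlr in 16, Nrp1, Cspg4 and Irs1 in 14, Nrcam and Lrp1b in 12, and Tnc and Ptprm in 11. A refit with fewer libraries has fewer degrees of freedom. With the replicate number as a block 10 list genes were called higher and 2 lower, and 454 and 272 of all genes. Deviations of samples of the same number had r of -0.51, 0.36 and -0.0049 for numbers 1, 2 and 3. Deviations from a mean of 3 libraries are tied to each other, so these values cannot decide whether the number pairs samples. Depth limits Alk and Ltk, at 44 and 15 Control counts in all.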
